A study of Drosophila melanogaster with 140 samples.

Results

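The JAK/STAT stress genes of the fly, 8 of the 17562 genes in the deposited count table, were picked by symbol and followed across age, Abeta42, cell type and Mettl3 RNAi: the cytokine gene upd3, the receptor gene dome, the kinase gene hop, the transcription factor gene Stat92E, the inhibitor gene Socs36E, and the 3 Turandot genes TotA, TotC and TotM. In this pathway a secreted Unpaired cytokine binds the receptor Domeless, the receptor-bound kinase Hopscotch phosphorylates Stat92E, and Stat92E enters the nucleus and activates target genes. Socs36E is one of those targets and feeds back to dampen the signal, and the Turandot genes encode small secreted proteins that the fat body, the fly counterpart of liver and adipose tissue, releases after heat, infection or injury. Upd3 is the member of the cytokine family best known from blood cells and damaged tissue.

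Male flies kept at 25 °C gave 140 libraries in 42 groups, and each comparison below uses the groups named with it. Whole heads, 200 per replicate, carried da-Gal4, a ubiquitous driver, with mCherry RNAi (called control) or Ime4 RNAi against Mettl3, the enzyme that writes the RNA mark m6A, at 5 and 34 days (5d and 34d), with an input and an m6A antibody pulldown (m6A-IP) from each of 3 replicates. In a second head set and in brains, both at 6 days, the neuronal driver elavGal4c155 expressed human Abeta42 (UAS-AB(2x)) or, as control, UAS-mcd8GFP. Sorted cells, 500 per replicate, were GFP+ cells of elavGal4 brains, and GFP+ (glial driver) and GFP- cells of RepoGal4 brains, all with mCherry or Ime4 RNAi and isolated in the presence of the transcription blocker actinomycin D. In the TRAP experiment, which pulls down tagged ribosomes, neurons (elav driver) or glia (repo driver) carried RPL3-FLAG with either RNAi, and pools of brains gave 32 inputs and 30 FLAG pulldowns (TRAP-IP). The RNAi was thus driven in neurons or in glia in sorted cells and TRAP brains, and throughout the fly in heads. The study's methods call the replicates of the m6A-IP and TRAP experiments biological, but labels give no flies or cultures behind a replicate number. Each p-value measures the spread between these samples, which may in part be technical.

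Total counts per library ran from 27037881 to 35069140 in head inputs, from 17513035 to 22746821 in the Abeta42 brains and head inputs, from 10575300 to 21968057 in sorted cells, from 5701292 to 17891755 in brain inputs and from 2132983 to 9224535 in TRAP-IP. Mettl3 itself averaged 5.28 CPM in control and 3.54 CPM in RNAi heads at 5d, and 6.93 and 2.29 CPM at 34d. In repoGFP+ cells it averaged 8.19 and 1.02 CPM at 5d. The elavGFP+ libraries also held glial RNA, with 8 glial markers summing to 2414 to 10400 CPM against 283 to 894 CPM in repoGFP- cells. Levels below are CPM, counts scaled to a common library size with TMM within each kind of library, fold changes are log2 from edgeR with their standard error (SE), and a gene passed where the Benjamini-Hochberg adjusted p over all genes tested was below 0.05.

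Coordinates of the 8 genes are those of dm6. The cytokine gene upd3 is at X:18277233-18284596, dome at X:19676061-19683518, hop at X:11360930-11368098, Stat92E at 3R:20535323-20552311 and Socs36E at 2L:18138675-18152417. TotA (3R:20871036-20871700) and TotC (3R:20872988-20873580) are neighbours in a run of Turandot genes with TotB, TotZ and TotX, whereas TotM stands alone at 2L:5329857-5330464. No exon of the 8 genes overlaps an exon of another gene in the annotation. How reads matching more than one Turandot copy were counted is not given in the sources used here, so values of single Turandot genes are uncertain to that extent.

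Across tissues the 8 genes fell into a steady set and an unsteady one. Divided by exon length, so that genes can be compared, the highest level of the 8 belonged to TotA in 23 of the 36 groups other than m6A-IP, to Stat92E in 12 and to Socs36E in 1. Stat92E led in all 12 groups of sorted cells, and TotA led in every head, brain and brain input group. In control heads at 5d the levels per kb of exon were 242.9 CPM for TotA, 39.9 for Stat92E, 36.8 for TotC, 13.4 for Socs36E, 9.77 for dome, 5.41 for hop, 4.07 for TotM and 0.111 for upd3. In repoGFP+ control cells at 5d Stat92E was at 54.6 CPM per kb and TotA at 1.07.

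TotA averaged 141 CPM in control heads at 5d, but in the 24 libraries of the repo sort it ranged from 0 to 3.42 CPM. TotC and TotM were at or under 3 counts in every one of those 24 libraries, save 1 repoGFP+ Mettl3 RNAi 5d library with 10 counts of TotM, and 3 counts correspond to 0.191 to 0.284 CPM at these depths. Upd3 had no count in any repoGFP+ library. So upd3 in repoGFP+ cells, and TotC and TotM in both populations, were at or near the limit of detection at this depth, and TotA was above it in part of the libraries, whereas dome, hop, Stat92E and Socs36E were read in all of them.

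Replicates of the 4 intracellular and receptor genes were close together, with a median coefficient of variation over the 36 groups of 13.2% for dome, 14.6% for hop, 11.9% for Stat92E and 11.5% for Socs36E. For the Turandot genes, over the groups with enough counts, it was 72.2% (TotA), 75.4% (TotC) and 88.1% (TotM). The highest library of a group held up to 42.2 times the lowest for TotA, 65.6 times for TotC and 95.8 times for TotM. For dome, hop, Stat92E and Socs36E it held up to 3.205, 6.95, 2.145 and 2.835 times the lowest. The largest coefficients of variation of these genes were 50.4%, 58.7%, 31.4% and 46.1%. For TotA, TotC and TotM they were 126.1%, 183.1% and 180.6%. In 13 of 24 groups with 10 or more counts of each, 1 library was the highest for all 3 Turandot genes.

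Age was compared first in whole heads. In control heads 4 of 8 genes rose from 5d to 34d and none fell, where 51.5% of the 10512 genes tested passed in either direction and 23.5% rose. Stat92E, which carries the signal to the nucleus, was at 222, 200 and 201 CPM at 5d and at 415, 430 and 426 CPM at 34d. Every old library was above every young one, and the log2 fold change was 0.98 (SE 0.09, edgeR adjusted p = 0.00024). The receptor gene dome stood at 52, 48.8 and 42 CPM at 5d and at 69.6, 70.2 and 70.5 CPM at 34d (log2 fold change 0.51, SE 0.09, edgeR adjusted p = 0.0037).

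The kinase gene hop went from 25.9, 28.8 and 27.3 CPM to 39.5, 34.6 and 37.6 CPM with age in control heads (0.40, SE 0.08, edgeR adjusted p = 0.0066). Socs36E went from 43, 53.1 and 44.4 CPM to 61.4, 59.6 and 58.3 CPM (0.31, SE 0.09, edgeR adjusted p = 0.030). Neither gene's ages overlapped, but the call of Socs36E was lost on leaving out 5d replicate 3 or any of the 34d replicates. Upd3 was at the edge of detection, with 7, 12 and 1 counts at 5d and 22, 8 and 18 at 34d, and did not pass (0.87, SE 0.66, edgeR adjusted p = 0.31).

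The Turandot genes did not pass in control heads, and their ages overlapped. TotA was at 202, 86.6 and 134 CPM at 5d and 77.7, 135 and 99.2 CPM at 34d, TotC at 26.2, 7.82 and 24.6 CPM and then 11.4, 31.6 and 27 CPM, and TotM at 4.58, 0.546 and 1.62 CPM and then 1.46, 3.96 and 4.8 CPM. Among the 13 other tested genes of the pathway, 8 rose and 1 fell. The risers included Tep2, a thioester-containing immune protein (1.31), et, a short receptor related to Domeless (1.16), zfh1, a transcription factor gene known as a Stat92E target in the testis (1.12), and vir-1, induced by virus infection (0.70). The one that fell was TotX, another Turandot gene (log2 fold change -1.27).

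Markers of several cell types also differed between the ages of the control heads. The 5 muscle markers summed to 6052 to 11840 CPM at 5d and 2028 to 2051 CPM at 34d, and the 7 photoreceptor markers to 33470 to 54370 CPM and 61130 to 63090 CPM. Fat body markers went from 7391 to 8945 CPM down to 5155 to 5903 CPM, hemocyte markers from 1083 to 1570 CPM down to 815.8 to 888.3 CPM and glial markers from 2693 to 3420 CPM down to 2093 to 2150 CPM, while neuronal markers overlapped. Their part in the values of Stat92E, dome, hop and Socs36E was not tested.

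In heads with Mettl3 RNAi 6 of 8 genes rose with age, where 71.8% of 10558 genes passed in either direction and 34.6% rose. Stat92E went from 199, 193 and 188 CPM to 455, 480 and 423 CPM (1.22, SE 0.06, edgeR adjusted p = 2.3e-08), and dome from 42.5, 46.5 and 44.1 CPM to 87.6, 89.6 and 84.3 CPM (0.96, SE 0.06, edgeR adjusted p = 8.5e-08). The rise of upd3 passed here, from 3, 4 and 5 counts to 26, 25 and 41 counts (2.87, SE 0.40, edgeR adjusted p = 6.9e-05). Hop rose by 0.55 and Socs36E by 0.51 on the log2 scale.

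TotC in the RNAi heads went from 3.85, 2.13 and 7.25 CPM to 18.4, 10 and 11.6 CPM (1.61, SE 0.52, edgeR adjusted p = 0.045). That call was lost without any 1 of 5 of the 6 libraries, the exception being 5d replicate 3, and with no filter on low counts. TotA stood at 56.8, 37.4 and 44.8 CPM and then at 57.9, 55.1 and 62.9 CPM, and TotM at 0.182, 0.737 and 0.38 CPM and then at 2.62, 0.787 and 0.504 CPM. Neither passed with edgeR, while DESeq2 called all 8 genes in this comparison. Of the 13 other pathway genes 8 rose and 2 fell, with Tep2 (1.54), zfh1 (1.41), et (1.34), chinmo (1.25) and vir-1 (0.83) as the named risers. In the same heads muscle markers summed to 7827 to 8880 CPM at 5d and 2016 to 2197 CPM at 34d, photoreceptor markers to 30440 to 38970 CPM and 57060 to 64180 CPM, and hemocyte markers to 1192 to 1288 CPM and 623.9 to 753.7 CPM. Fat body markers overlapped between the ages, at 5377 to 7681 CPM and 5934 to 7081 CPM. Glial markers were lower at 34d, at 2073 to 2229 CPM against 2461 to 2557 CPM, and neuronal markers higher, at 4194 to 4288 CPM against 3499 to 3667 CPM. The part of these cells in the rises was not tested.

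Whether the change with age differed between RNAi and control heads was tested as an interaction, and 0 of 8 genes passed with edgeR, where 2.03% of 10844 genes did. The nearest was dome, whose rise was larger by 0.44 on the log2 scale with the RNAi (SE 0.11, edgeR adjusted p = 0.071). The unadjusted p was under 0.05 for 2 genes, upd3 and dome, and DESeq2 called 1, dome. For upd3 the difference was 1.98 (SE 0.83, edgeR adjusted p = 0.29), with counts at 5d too low for a precise value.

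**Figure D1:**
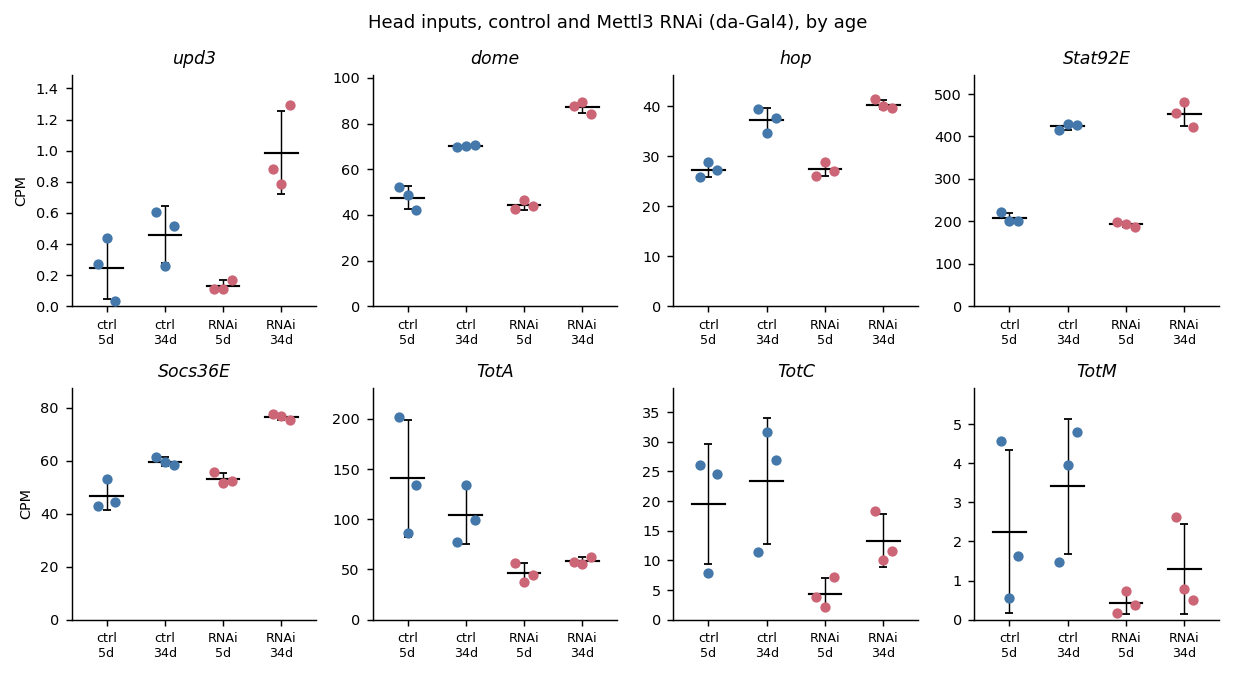
Level of each of the 8 genes in head inputs (y axis, CPM), for control and Mettl3 RNAi heads at 5d and 34d, with 1 point per replicate, a bar at the group mean and whiskers for the SD (n = 3). Stat92E sits between 188 and 222 CPM in all 5d heads and between 415 and 480 CPM in all 34d heads, and the 5d RNAi points of TotA, TotC and TotM do not reach as high as the 5d control points.

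At a given age, Mettl3 RNAi was set against control. In 5d heads 0 of 7 tested genes passed with edgeR, where 0.173% of 10429 genes did. All 3 Turandot genes had an unadjusted p under 0.05, and DESeq2 called TotA and TotC. TotA was at 202, 86.6 and 134 CPM in control and 56.8, 37.4 and 44.8 CPM in RNAi heads (log2 fold change -1.60, SE 0.32, edgeR adjusted p = 0.15), and the groups did not overlap. TotC gave -2.16 (SE 0.57, edgeR adjusted p = 0.27) without overlap of the groups, and TotM, whose groups overlapped, gave -2.32 (SE 0.82, edgeR adjusted p = 0.39).

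The 7 fat body markers (Fbp1, Lsp2, apolpp, Yp1, Yp2, Yp3 and AkhR) summed to 7391 to 8945 CPM in the 5d control heads and to 5377 to 7681 CPM in the 5d RNAi heads. These sums overlapped between the groups. Lsp2, a storage protein of the fat body, was at 7078, 5025 and 6560 CPM in the control and at 4570, 4825 and 3685 CPM in the RNAi heads. Lsp2 made up a large part of each sum, and the other markers were not compared without it. The lower Lsp2 values therefore do not show that the fat body markers as a set were lower in the RNAi heads. The part that fat body RNA has in the Turandot values was not tested. In libraries of whole heads or brains, fewer cells of a type and less RNA per cell cannot be told apart.

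In 34d heads 3 of 8 genes were higher with Mettl3 RNAi and none lower, where 40.8% of 10433 genes passed in either direction and 21.7% were higher. Socs36E was at 61.4, 59.6 and 58.3 CPM in control and 77.6, 77 and 75.4 CPM in RNAi heads (0.37, SE 0.04, edgeR adjusted p = 3.4e-06). Dome was at 69.6, 70.2 and 70.5 CPM against 87.6, 89.6 and 84.3 CPM (0.32, SE 0.04, edgeR adjusted p = 1.2e-05). For both genes the groups did not overlap.

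Upd3 had 22, 8 and 18 counts in control and 26, 25 and 41 counts in RNAi heads at 34d (1.08, SE 0.34, edgeR adjusted p = 0.017). That call was lost without control replicate 2 or RNAi replicate 3. Hop and Stat92E differed by 0.12 and 0.10 and did not pass. TotA was lower in every RNAi library, at 57.9, 55.1 and 62.9 CPM against 77.7, 135 and 99.2 CPM, but missed the threshold (-0.82, SE 0.24, edgeR adjusted p = 0.059), and DESeq2 called it. Fat body markers at 34d summed to 5155 to 5903 CPM in control and 5934 to 7081 CPM in RNAi heads. The part of fat body RNA in these TotA values was not tested.

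Of the 13 other pathway genes at 34d, 7 were higher and 2 lower with the RNAi. TotX was lower (-0.96), and chinmo (0.43), zfh1 (0.39), the SOCS-box gene Socs16D (0.21) and ken, a repressor of some Stat92E targets (0.17), were higher.

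The m6A pulldown was used to ask how strongly each transcript is recovered by the antibody, as the m6A-IP level over the input level of the same replicate. Both levels are CPM scaled with TMM over the input and m6A-IP libraries together. The ratio is relative to all other transcripts of the library and covers the whole transcript, and where it crosses 1 depends on the scaling, so that only the order of genes and the difference between groups are read from it. In control heads at 5d dome was recovered 3.49, 3.26 and 4.48 times over input and Socs36E 3.39, 3.24 and 4.25 times, above 92.1% to 95.1% of the genes measured. Stat92E was at 1.23, 1.22 and 1.39 times. Hop, at 0.338 to 0.455 times, and the Turandot genes, at 0.131 to 0.219 times for TotA and 0.201 to 0.373 times for TotC, had the lowest ratios among the genes named here.

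With Mettl3 RNAi at 5d the ratio of 2 of 7 tested genes fell and none rose, where 19% of 10666 genes passed in either direction and 14% fell. Stat92E had ratios of 0.534, 0.530 and 0.519 in the RNAi heads, all below the lowest control value (log2 change -1.27, SE 0.10, edgeR adjusted p = 2e-09). Socs36E was at 2.64, 2.77 and 2.80 (-0.39, SE 0.11, edgeR adjusted p = 0.016), a call that was lost with DESeq2, with RLE scaling, without the pairing of input and m6A-IP (edgeR adjusted p = 0.19), and without control replicate 3 or RNAi replicate 1. The ratio of dome was 3.69, 2.95 and 3.87 and overlapped the control (-0.09, SE 0.13, edgeR adjusted p = 0.69).

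At 34d the ratio of 3 of 8 genes fell with the RNAi and none rose, where 32.3% of 10678 genes passed in either direction and 19.7% fell. Stat92E went from 1.19, 1.36 and 1.18 times in control to 0.640, 0.654 and 0.562 times (-1.12, SE 0.10, edgeR adjusted p = 9.3e-09). Socs36E went from 2.93, 3.43 and 2.98 to 1.56, 1.86 and 2.17 times (-0.86, SE 0.11, edgeR adjusted p = 2.4e-06). Dome went from 3.49, 3.81 and 3.31 to 2.46, 3.02 and 3.08 times (-0.43, SE 0.11, edgeR adjusted p = 0.0037), a call lost without control replicate 2. The ratios of Stat92E and Socs36E did not overlap between control and RNAi heads at either age.

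Between 5d and 34d control heads the ratio of 0 of 8 genes changed with edgeR, where 23.7% of 10750 genes passed, and 0 genes had an unadjusted p under 0.05. DESeq2 called 1 gene, TotA. The change of Stat92E was -0.02 (SE 0.11) and that of dome -0.05 (SE 0.12), and both change sign under RLE scaling, which moved the median of all genes by 0.177 on the log2 scale.

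**Figure D2:**
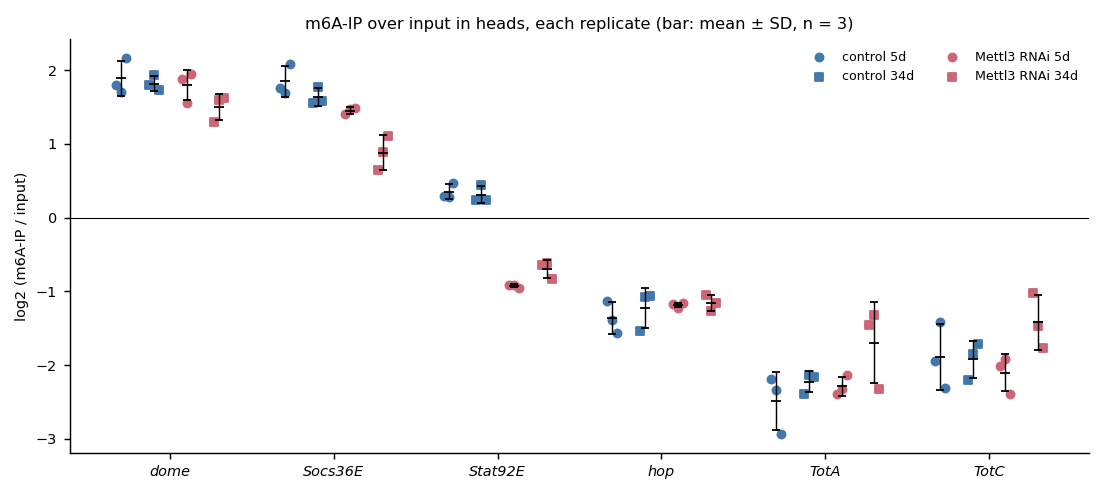
The log2 ratio of m6A-IP to input (y axis) in heads for dome, hop, Stat92E, Socs36E, TotA and TotC, with circles for 5d, squares for 34d, 1 point per replicate and bars for the mean and SD (n = 3). All 6 control replicates of Stat92E, at ratios of 1.18 to 1.39 before the log, lie above all 6 Mettl3 RNAi replicates, at 0.519 to 0.654, and the position of 0 depends on the scaling.

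Abeta42, the peptide that forms plaques in Alzheimer's disease, was expressed in neurons, and heads and brains were compared with the GFP control at 6 days. In heads 4 of 8 genes passed, 2 higher and 2 lower, where 36% of 10210 genes passed. Upd3 was at 5, 7 and 10 counts in control and 33 and 39 counts in Abeta42 heads (log2 fold change 2.31, SE 0.38, edgeR adjusted p = 0.00043). Socs36E was at 59.9, 57.6 and 67.6 CPM against 98.5 and 94.3 CPM (0.65, SE 0.07, edgeR adjusted p = 1.5e-05). For the cytokine gene and the feedback gene alike, both Abeta42 libraries stood above all 3 controls.

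Stat92E was lower, at 342 and 317 CPM against 379, 385 and 389 CPM (-0.21, SE 0.07, edgeR adjusted p = 0.025). That call was lost without any 1 of 4 of the 5 libraries, the exception being Abeta42 replicate 1. TotA was lower too, at 607 and 400 CPM against 1391, 1353 and 1673 CPM (-1.54, SE 0.26, edgeR adjusted p = 0.021, and 0.051 without control replicate 2). TotC stood at 194 and 101 CPM against 314, 282 and 373 CPM, with no overlap but short of the threshold (-1.12, SE 0.38, edgeR adjusted p = 0.12), and TotM at 64.7 and 48.6 CPM against 37.7, 50.6 and 54.5 CPM. Dome (0.14) and hop (0.06) did not pass.

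In brains 5 of 8 genes passed, 4 higher and 1 lower, where 31% of 9759 genes passed. Upd3 had 1, 0 and 4 counts in control and 13, 32 and 55 counts in Abeta42 brains (edgeR adjusted p = 0.0072, and 0.055 without control replicate 1), and with so few control counts its fold change of 4.03 (SE 0.79, log2) rests on the fit. Socs36E was at 61.5, 64 and 59.1 CPM against 112, 116 and 118 CPM (0.88, SE 0.05, edgeR adjusted p = 2.5e-05). Dome was at 67, 61.2 and 64.5 CPM against 79.3, 78.6 and 83.5 CPM (0.30, SE 0.05, edgeR adjusted p = 0.0047).

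Hop stood at 34.4, 37.3 and 37.5 CPM in control and 43.5, 47 and 44.8 CPM in Abeta42 brains (0.29, SE 0.07, edgeR adjusted p = 0.015, and 0.054 without Abeta42 replicate 2). Stat92E was lower at 278, 279 and 276 CPM against 350, 311 and 339 CPM (-0.28, SE 0.06, edgeR adjusted p = 0.0081). The groups of these 5 genes did not overlap, and the share of all genes without overlap was not computed. The signs of upd3, Socs36E and Stat92E were thus alike in heads and brains, which came from separate libraries.

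Turandot values in these brains spread widely and did not pass. TotA was at 463, 231 and 1221 CPM in control and 217, 19.8 and 41.7 CPM in Abeta42 brains (-2.80, SE 1.29, edgeR adjusted p = 0.18), with no overlap. TotC was at 178, 62 and 602 CPM against 52, 8.23 and 16.9 CPM (-3.47, SE 1.28, edgeR adjusted p = 0.12), again with no overlap, and DESeq2 called it. TotM was at 32, 10.2 and 97.6 CPM against 20.5, 3.25 and 2.96 CPM, which overlapped (-2.42, SE 1.31, edgeR adjusted p = 0.24).

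The 7 fat body markers summed to 7271 to 12200 CPM in control and 3428 to 4001 CPM in Abeta42 heads, and to 5397 to 6909 CPM and 1900 to 3771 CPM in the brains. In the brains Lsp2 was at 1496, 899 and 1198 CPM in control and at 1640, 41.8 and 55.3 CPM in Abeta42 replicates 1 to 3, and replicate 1 also had the highest TotA, TotC and TotM of its group. That replicate had more Lsp2 than every control brain but less TotA. Among the control brains TotA, TotC and TotM were highest in replicate 3, which did not have the highest Lsp2. The 7 hemocyte markers (Hml, He, NimC1, Sr-CI, Pxn, Col4a1 and vkg) summed to 1006 to 1139 CPM in control and 576 to 719 CPM in Abeta42 brains. In heads they summed to 958.1 to 1067 CPM and 781.3 to 903.8 CPM.

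Summed markers of photoreceptors and glia were lower in every Abeta42 library as well. Photoreceptor markers summed to 55890 to 56910 CPM in control and 37990 to 39540 CPM in Abeta42 heads, and to 44660 to 49410 CPM and 24570 to 33400 CPM in the brains. Glial markers summed to 2543 to 2730 CPM and 2177 to 2270 CPM in heads, and to 4489 to 4577 CPM and 3515 to 4114 CPM in brains. Neuronal markers were at 4200 to 4491 CPM against 3387 to 3739 CPM in heads and overlapped in brains, at 7076 to 7178 CPM against 6050 to 7165 CPM. Muscle markers in heads were at 2889 to 3153 CPM against 2069 to 2220 CPM. The part of any of these cells in the values of Stat92E, Socs36E, upd3, dome, hop or the Turandot genes was not tested.

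Among the 14 other pathway genes, 1 was higher and 4 lower in Abeta42 heads, and 0 were higher and 2 lower in brains. In heads these were TotX (-1.30), TotB (-2.65, at 15, 17 and 18 counts against 1 and 4), et (1.18), chinmo (-0.37) and Su(var)2-10, the fly PIAS protein (-0.19). In brains TotX was lower (-2.60), as was Diedel, a secreted immune regulator (57, 19 and 172 counts against 2, 7 and 0). The other Turandot genes that passed were thus all lower with Abeta42.

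**Figure D3:**
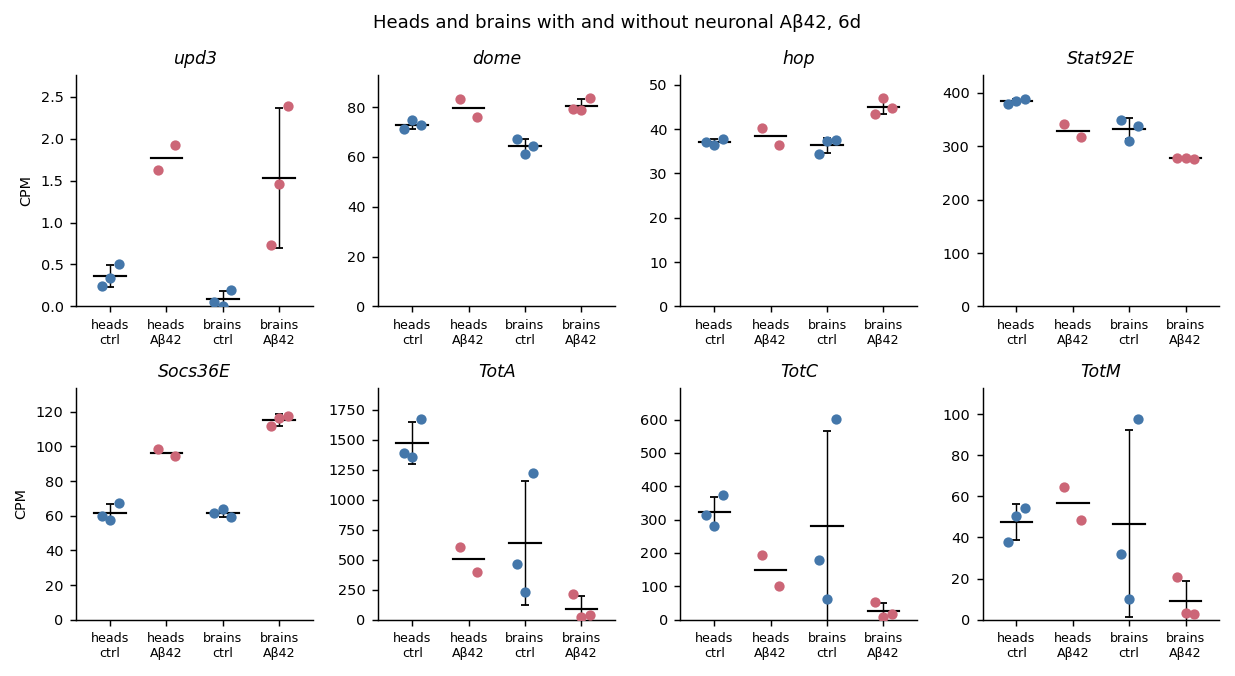
Level of each of the 8 genes (y axis, CPM) in head inputs and brains of control and Abeta42 flies at 6 days, with 1 point per replicate, a bar at the group mean and whiskers for the SD (n = 3; n = 2 and no whiskers for Abeta42 heads). Upd3 and Socs36E are higher and Stat92E lower in every Abeta42 library of each tissue, while TotA runs from 231 to 1221 CPM among the 3 control brains.

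The m6A-IP ratio in Abeta42 against control heads passed for 4 of 8 genes, 3 lower and 1 higher, where 24.4% of 10463 genes passed. TotA went from 0.595, 0.772 and 0.616 times in control to 0.470 and 0.476 times (-0.58, SE 0.10, edgeR adjusted p = 4.4e-05) and TotC by -0.45 (SE 0.09, edgeR adjusted p = 0.00043). Hop gave -0.34 (edgeR adjusted p = 0.033) and dome 0.24 (edgeR adjusted p = 0.049). The calls of hop and dome were lost on leaving out either control replicate 2 or 3 or Abeta42 replicate 1, and that of dome also without Abeta42 replicate 2. The call of hop was lost with DESeq2, with RLE scaling and with either other filter as well. Without the pairing of input and m6A-IP none of the 4 passed, with edgeR adjusted p of 0.287 for TotA, 0.613 for TotC, 0.0963 for hop and 0.242 for dome.

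Where in the brain the pathway is expressed was compared between glial and other cells. In sorted control cells 0 of 5 tested genes differed between repoGFP+ and repoGFP- cells at 5d, where 18.1% of 9181 genes did, and 0 of 5 at 34d, where 6.69% of 9027 did. At 5d dome had an unadjusted p under 0.05 and at 34d hop had, and DESeq2 called 0 genes at either age. Dome was at 29.9, 67.1 and 85.7 CPM in repoGFP+ and 109, 143 and 108 CPM in repoGFP- cells at 5d (-0.98, SE 0.36, edgeR adjusted p = 0.12), with no overlap. Fitted with all groups of the sort together, dome at 5d and hop at 34d passed.

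Socs36E in the same 5d cells was at 102, 92 and 99.9 CPM in repoGFP+ and 91.4, 99 and 87.7 CPM in repoGFP- cells, and Stat92E at 262, 244 and 347 CPM and 290, 394 and 357 CPM. Both genes overlapped between the cell types. Of the 9 other pathway genes tested, 4 were higher in repoGFP+ cells at 5d and 2 lower. Tep2 was at 151, 102 and 148 CPM in repoGFP+ and at 0.127, 0 and 0 CPM in repoGFP- cells, and ken at 56.2, 41.2 and 105 CPM and 0, 0.139 and 0 CPM. At 34d 3 were higher and 0 lower. The 8 glial markers summed to 19120 to 26970 CPM in repoGFP+ control cells at 5d but to 5711 to 10490 CPM at 34d, and to 730.8 to 762.9 CPM and 283.3 to 383.1 CPM in repoGFP- cells. The part of this change in the comparison at 34d was not tested. RepoGFP+ libraries also held neuronal RNA, with 6 neuronal markers summing to 4016 to 4346 CPM in control at 5d. In repoGFP- control cells the same markers summed to 5099 to 6966 CPM. At 34d the sums overlapped, at 4137 to 5055 CPM in repoGFP+ and 4996 to 5215 CPM in repoGFP- cells. The part of this neuronal RNA in the comparisons was not tested.

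Ribosome-bound RNA gave a difference for 1 gene. Of 7 tested genes Socs36E alone was higher in glial than in neuronal TRAP-IP of control brains, at 5d, where 33% of 9732 genes passed, and at 34d, where 20.2% of 9385 did. Its levels at 5d were 101, 82.7, 100 and 94.4 CPM in glial and 66.6, 44.3 and 40.9 CPM in neuronal TRAP-IP (0.83, SE 0.22, edgeR adjusted p = 0.013), a call lost without neuronal replicate 2 or 3. At 34d they were 126, 62.5, 122 and 107 CPM against 50.1, 45.2, 68 and 47 CPM (1.01, SE 0.25, edgeR adjusted p = 0.012).

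Only glial replicate 2 lay within the neuronal range at 34d. The pulldowns came from different driver genotypes and were compared without their inputs. In the control inputs Socs36E averaged 49.3 CPM with the repo and 67.9 CPM with the elav driver at 5d. At 34d it averaged 72.1 and 53.4 CPM. The part of total RNA in the TRAP-IP difference was not tested. Stat92E, at 127, 123, 118 and 168 CPM in glial and 114, 94.8 and 127 CPM in neuronal TRAP-IP at 5d, overlapped between them (0.17, SE 0.20, edgeR adjusted p = 0.55). Of the 11 other pathway genes, 5 were higher in glial TRAP-IP at 5d and 4 at 34d, with 0 lower at either age. Vir-1 (3.21 at 5d and 2.98 at 34d) and zfh1 (1.90 and 2.24) were among them at both ages. Neuronal markers overlapped between the pulldowns, at 4304 to 5189 CPM in glial and 4078 to 5074 CPM in neuronal TRAP-IP at 5d. At 34d they summed to 4431 to 5631 CPM in glial and 3812 to 4966 CPM in neuronal TRAP-IP. The part of neuronal RNA in the glial TRAP-IP values was not tested.

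With age, 0 of the 8 genes passed in any sorted population or TRAP-IP. In elavGFP+ cells 0 of 5 tested genes changed in control brains, where 4.35% of 10953 genes did, and 0 of 5 with neuronal Mettl3 RNAi, where 3.83% of 11188 did. In repoGFP+ cells 0 of 5 changed in control brains (0.12% of 9133 genes) and 0 of 4 with glial Mettl3 RNAi (0% of 9108 genes). In repoGFP- cells 0 of 5 changed in control brains (1.2% of 8768 genes) and 0 of 5 in brains with glial RNAi (2.31% of 8770 genes).

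Neuronal and glial control TRAP-IP gave 0 of 7 each, where 5.49% of 9498 and 8.01% of 9553 genes passed. By an unadjusted p under 0.05 the counts over these 8 comparisons were 2 genes in RNAi elavGFP+ cells (Stat92E and TotA), 1 each in control repoGFP+ cells (dome), RNAi repoGFP+ cells (hop) and neuronal TRAP-IP (dome), and 0 in the other 4. DESeq2 called 2 genes in RNAi elavGFP+ cells, Stat92E and TotA, and 0 in the other 7. The rise of Stat92E found in aged heads was not found in these cells, and the difference between heads and cells was not tested. Dome rose by 0.70 (SE 0.32) in control elavGFP+ cells and by 0.98 (SE 0.37) in control repoGFP+ cells on the log2 scale. In control neuronal TRAP-IP it rose by 0.81 (SE 0.31). None of these passed, with edgeR adjusted p of 0.29, 0.28 and 0.15. In the rest of these comparisons the change of dome lay between -0.06 and 0.24. In control heads it was 0.51. Glial markers were lower at 34d than at 5d in each control set, at 2525 to 3538 CPM against 5537 to 7291 CPM in elavGFP+ cells, 1226 to 1528 CPM against 2764 to 3549 CPM in neuronal TRAP-IP and 6041 to 10340 CPM against 13760 to 23910 CPM in glial TRAP-IP. In repoGFP+ cells with glial RNAi they summed to 24090 to 28210 CPM at 5d and 8624 to 16310 CPM at 34d, while in RNAi elavGFP+ cells the ages overlapped. Their part in the values of the 8 genes was not tested.

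Stat92E was at 216, 200 and 339 CPM in control elavGFP+ cells at 5d and at 252, 189, 211 and 265 CPM at 34d (-0.13, SE 0.19, edgeR adjusted p = 0.81). In control repoGFP+ cells it was at 262, 244 and 347 CPM at 5d and 289, 233 and 336 CPM at 34d (0.11, SE 0.20, edgeR adjusted p = 0.89). The ages overlapped in both cell types. In elavGFP+ cells with neuronal RNAi Stat92E went from 251, 398 and 254 CPM to 168, 167, 205 and 184 CPM without overlap. It missed the threshold (-0.70, SE 0.19, edgeR adjusted p = 0.082). The sign was that of control elavGFP+ cells, and the difference between RNAi and control did not pass (-0.57, SE 0.29, edgeR adjusted p = 0.87).

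TotA in RNAi elavGFP+ cells was at 1.23, 3.81 and 2.07 CPM at 5d and 5.77, 5.05, 44.7 and 12.8 CPM at 34d (2.87, SE 0.85, edgeR adjusted p = 0.10). The ages did not overlap, and 34d replicate 3 stood far above the rest. Of other pathway genes vir-1 rose in elavGFP+ cells of control (1.42) and RNAi brains (2.46), and zfh1 in those of RNAi brains (2.43).

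With Mettl3 RNAi against control in sorted cells, the tested genes that passed with edgeR were 0 of 5 in elavGFP+ cells at 5d (0% of 10464 genes) and at 34d (0.0366% of 10928 genes), 0 of 4 in repoGFP+ cells at 5d (0% of 9101 genes) and 0 of 5 at 34d (0% of 9124 genes). By an unadjusted p under 0.05 there were 0, 2 (dome and TotA), 0 and 1 (hop), and DESeq2 called only TotA in elavGFP+ cells at 34d. Hop in 34d repoGFP+ cells was at 37.6, 60.6 and 37.8 CPM in control and 96.5, 78.2 and 87.8 CPM with RNAi, without overlap (0.89, SE 0.29, edgeR adjusted p = 0.57), and passed where all groups of the sort were fitted together (0.95, edgeR adjusted p = 0.046). TotA in the 34d elavGFP+ cells was at 2.22, 0.309, 0 and 1.63 CPM in control and 5.77, 5.05, 44.7 and 12.8 CPM in RNAi cells (4.06, SE 1.13, edgeR adjusted p = 0.39).

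Every RNAi library was above every control library for TotA at 34d, and the fat body markers of the same libraries summed to 22.1 to 41.7 CPM in control and 81.5 to 179.2 CPM in RNAi cells. The part of fat body RNA was not tested. Tests of whether the change with age differed gave 0 of 5 genes between RNAi and control elavGFP+ cells (0% of 12282 genes), 0 of 5 between RNAi and control repoGFP+ cells (0% of 9824 genes), and 0 of 5 between control repoGFP+ and repoGFP- cells (0.0305% of 9834 genes). An unadjusted p under 0.05 was found for TotA, for hop and for 0 genes, and DESeq2 called 0 in each.

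Age was also compared in the brain inputs of the TRAP experiment. In control brains with the elav driver 2 of 7 tested genes rose and none fell, where 12.9% of 9462 genes passed in either direction and 5.61% rose. TotA was at 37.8, 31.6, 47.1 and 26.4 CPM at 5d and 91.2, 55.9, 105 and 97.7 CPM at 34d (1.25, SE 0.21, edgeR adjusted p = 0.0018). TotC was at 9.44, 6.53, 10.3 and 8.72 CPM and then 18.2, 21.4, 36.5 and 11.9 CPM (1.31, SE 0.32, edgeR adjusted p = 0.018), a call lost without 5d replicate 2 or 4 or 34d replicate 3.

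Neither gene's ages overlapped in these brains. In control brains with the repo driver TotA (0.68), TotC (1.44) and TotM (2.12) did not pass, with edgeR adjusted p of 0.47, 0.18 and 0.17, and Socs36E was the 1 gene of 7 that rose, where 25.3% of 9379 genes passed in either direction and 12.2% rose. It was at 36.1, 51, 52.8 and 57.3 CPM at 5d and 64.1, 51.2, 80.7 and 92.4 CPM at 34d (0.56, SE 0.19, edgeR adjusted p = 0.048). The ages overlapped, and the call was lost without any 1 of 7 of the 8 libraries, the exception being 34d replicate 2. In control brains with the elav driver Socs36E went the opposite way, from a mean of 67.9 CPM at 5d to 53.4 CPM at 34d. That fall did not pass (-0.37, SE 0.15, edgeR adjusted p = 0.13).

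With RNAi, Stat92E was the gene that rose with age in brain inputs. With neuronal RNAi it was 1 of 7 (31.5% of 9834 genes passed in either direction and 15.8% rose), at 90.1, 57.7, 71.4 and 69.9 CPM at 5d and 121, 109, 104 and 90.4 CPM at 34d (0.55, SE 0.13, edgeR adjusted p = 0.0024). With glial RNAi it was again 1 of 7 (27.8% of 9388 genes passed and 13% rose), at 90, 82.1, 82.6 and 92.2 CPM and then 131, 119, 107 and 105 CPM (0.40, SE 0.12, edgeR adjusted p = 0.016), a call lost without 5d replicate 2 or 34d replicate 1. The ages did not overlap in either. In control brains the change of Stat92E was 0.15 (SE 0.16) with the elav driver and 0.17 (SE 0.15) with the repo driver, and the differences between genotypes were not tested. Glial markers were lower at 34d in each of the 4 brain sets, at 1990 to 2642 CPM against 3433 to 4187 CPM in control brains with the elav driver and 1743 to 1910 CPM against 2265 to 3247 CPM with the repo driver, and at 1707 to 1878 CPM against 2868 to 3299 CPM with neuronal and 1523 to 1854 CPM against 3087 to 3693 CPM with glial RNAi. Their part was not tested.

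TotA with neuronal RNAi stood at 79.5, 44.4, 18.2 and 75.5 CPM at 5d and 243, 68.1, 944 and 356 CPM at 34d (2.88, SE 0.91, edgeR adjusted p = 0.058), and DESeq2 called it and TotC. With glial RNAi it stood at 494, 72.7, 37 and 81.4 CPM and then 397, 83.8, 100 and 125 CPM (0.03, SE 0.99, edgeR adjusted p = 0.99). Replicate 1 was the highest of its group at both ages there. Of the other 11 pathway genes 2 to 4 rose with age in each of the 4 brain sets and 0 fell, among them Tep2 with the elav driver (1.47 in control and 1.47 with RNAi), and vir-1 and zfh1 in the 3 sets other than control with the elav driver.

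RNAi was also set against control in 34d brain inputs. With neuronal RNAi 0 of 7 genes passed (0.43% of 9773 genes) and with glial RNAi 0 of 7 (0.877% of 9345 genes). The unadjusted p was under 0.05 for 2 genes (TotA and TotC) and for 3 (dome, Stat92E and Socs36E), and DESeq2 called 0 in each. TotA with neuronal RNAi ran from 68.1 to 944 CPM against 55.9 to 105 CPM in control (2.20, SE 0.78, edgeR adjusted p = 0.43).

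**Figure D4:**
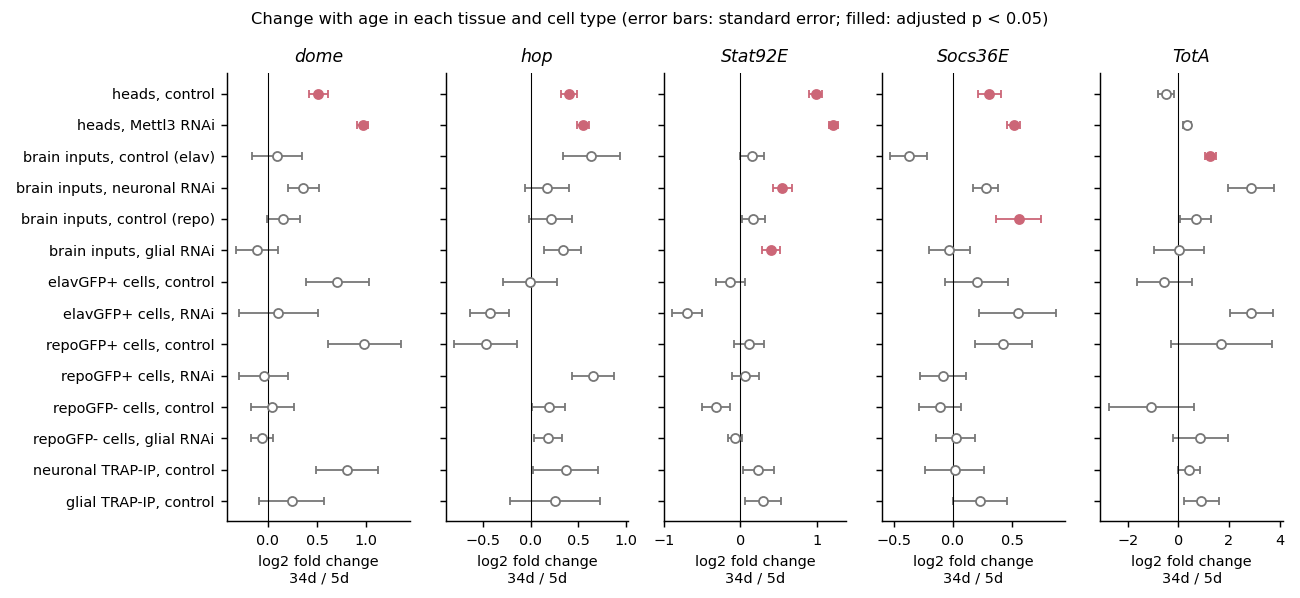
The log2 fold change from 5d to 34d (x axis) with its SE as error bar, for 5 of the genes in each tissue, cell type and genotype (y axis), with filled points where the edgeR adjusted p was below 0.05. Filled points of Stat92E are at 0.98 and 1.22 in heads and at 0.55 and 0.40 in brain inputs with RNAi, and no point is filled in sorted cells or TRAP-IP.

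The brain inputs show how Turandot genes moved between replicates. Over the 32 libraries, as deviations from the group means on the log2 scale, TotA and TotC had a Pearson r of 0.919 and TotA and TotM of 0.759, although TotM lies on another chromosome arm. TotA and Stat92E had an r of 0.24, TotA and Socs36E of 0.127, and TotA and dome of -0.0982. The libraries share groups and vary in depth, so these values are a description.

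TotA and the summed fat body markers had an r of 0.612 over the same 32 libraries, and TotA and the summed hemocyte markers one of -0.0475. In the glial RNAi group at 5d, replicate 1 had 494 CPM of TotA, 119 of TotC and 125 of TotM, and also the highest marker sum, 2536 CPM against 1012 to 1411 CPM in the other 3. In the neuronal RNAi group at 34d, replicate 3 had 944 CPM of TotA with a marker sum of 2392 CPM against 1594 to 2241 CPM. The part of fat body RNA in either library was not tested.

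**Figure D5:**
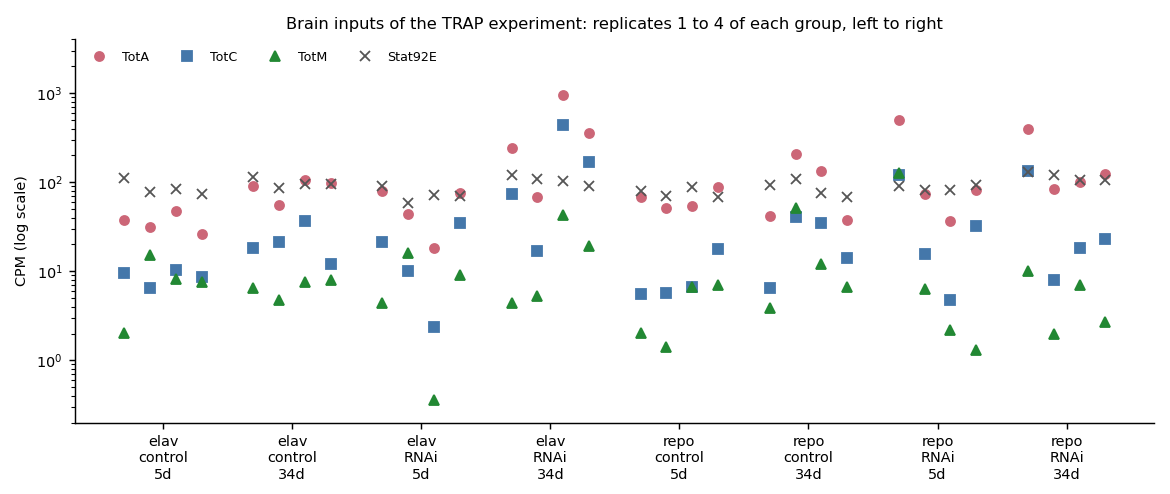
Levels of TotA, TotC, TotM and Stat92E (y axis, CPM on a log scale) in the brain inputs, with replicates 1 to 4 of each group side by side. TotA and TotC mostly move together from library to library, TotA between 18.2 and 944 CPM, while Stat92E stays between 57.7 and 131 CPM.

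Genes most like a member in pattern were sought among 9461, over the 36 group means other than m6A-IP, centred within each kind of library. For TotA they were its neighbour TotC (Pearson r = 0.688), CG6426 (0.681) and TotX (0.662). For Stat92E they were Smox, a Smad gene of the Activin pathway (0.876), the guanine exchange factor gene PDZ-GEF (0.772) and the kinase gene par-1 (0.766). For Socs36E they were Fim, an actin-bundling fimbrin (0.813), CG8671 (0.752) and the kinase gene mnb (0.748). In each case 2 of the 3 were also among the first 3 by Spearman's rho.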

How the data were processed

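The authors deposited 1 table of raw read counts per gene for all 140 libraries. The study's methods and the submitters' processing notes name Trim Galore, STAR 2.7.3a, SAMtools, DESeq2, deepTools and the dm6 genome. The strand setting and the treatment of reads with several matches are not given in the sources used here. Library preparation differed between experiments, so tests stayed within an experiment, and 0 columns lay outside the series. The genes and lists were chosen with earlier results of these data known.

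Counts were tested with edgeR 4.0.16 (quasi-likelihood, robust, TMM, filterByExpr with a minimum count of 10, Benjamini-Hochberg over all genes tested) with limma 3.58.1 in R 4.3.3, over the groups compared. A gene absent from the test was filtered out for low counts. The m6A-IP to input ratio was tested as the contrast of IP effects with the sample as block, since both come from 1 RNA. Scripts were tested on simulated data. Each of the 8 genes was tested in every comparison where its counts passed the filter, but values are not printed for every gene in every comparison. Of 18 other pathway genes in the table at most 5 a comparison were named: those that passed without overlap of the replicates, largest change first. TotE was not analysed here. Nearest patterns used log2 CPM with a prior count of 2 and genes with 10 CPM or more in a group.

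Alternatives were DESeq2 1.42.0, RLE scaling, no filter, a stricter filter (mean count of 50), the replicate number as block, each replicate left out, and for sorted cells all groups in 1 fit or 1 RUVr factor. No 2 libraries held identical counts.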

Additional observations from a re-analysis of the deposited data

Results flagged for a closer look

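Within groups of 4 libraries, 112 gene and group pairs were looked at for 1 library far from the others, by Dixon's criterion, which flags about 1 group in 20 by chance, and 7 were found, 6 of them Turandot values. In brain inputs with glial Mettl3 RNAi, replicate 1 stood apart at 5d with TotA at 494.4 CPM (others 36.98 to 81.45) and TotM at 125.3 CPM (others 1.308 to 6.398), and at 34d with TotA at 396.7 CPM (others 83.77 to 124.7) and TotC at 133.9 CPM (others 7.985 to 23.25). In control brain inputs with the repo driver at 5d, TotC was at 17.95 CPM in replicate 4 (others 5.542 to 6.695). In RNAi elavGFP+ cells at 34d, TotC was at 6.342 CPM in replicate 3 (others 0.1269 to 0.1749). The 1 value of another gene was dome at 26.51 CPM in replicate 2 of the control 34d brain inputs with the elav driver (others 17.62 to 18.65).

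Of 53 gene and group pairs outside the comparisons, 1 had every library above every control library. Only values above the control were looked for, and the share over all genes was not computed. With so few libraries a group, 1 of 53 such pairs can arise by chance. Socs36E averaged 121.7 CPM (72.56 to 201.1) in neuronal TRAP-IP with Mettl3 RNAi at 5d, against 50.6 CPM (40.86 to 66.65) in the control TRAP-IP. That difference was not tested.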

How the results depend on the processing

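Of 38 calls of single genes, 21 held under every alternative in which the gene was tested, and none of the 38 changed sign. The stricter filter removed upd3 for its low counts, so the calls of upd3 were not tried there. With DESeq2 the number of genes called became 2 for age in RNAi elavGFP+ cells, 3 for age in brain inputs with neuronal RNAi, 2 for RNAi in 5d heads, 1 for RNAi in 34d elavGFP+ cells, 1 for the interaction in heads, and 1 each for the m6A-IP ratio with RNAi at 5d and with age. RLE scaling gave 1 for each of those m6A-IP ratios, no filter gave 1 for the ratio with age, and the stricter filter gave 2 for age in brain inputs with neuronal RNAi. Fitting all groups of the sort gave 1 for repoGFP+ against repoGFP- cells at 5d, 1 at 34d and 1 for RNAi in 34d repoGFP+ cells. The cause was not tested. The other 194 counts under these settings lay within 1.5 times the main count.

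Leaving out 1 replicate at a time gave counts of 1 to 2 for age in control brain inputs with the elav driver, 0 to 1 with the repo driver, 1 to 3 with neuronal RNAi and 0 to 1 with glial RNAi, 2 to 5 for Abeta42 in heads, 0 to 2 for glial against neuronal TRAP-IP at 5d, 0 to 2 for glial RNAi in 34d brain inputs and 0 to 1 for the interaction in heads. For the m6A-IP ratio they were 1 to 2 and 2 to 5 with RNAi at 5d and 34d, 0 to 1 with age and 2 to 4 with Abeta42.

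Replicate numbers were shared between groups, but in no comparison did every same-numbered pair correlate above 0.1, and the labels do not say that a number marks shared material. For repoGFP+ against repoGFP- cells the same number may mark the gates of 1 sort. With the replicate number as block 0 genes passed there at 5d and at 34d and for the difference in change with age, as without it, and no count moved by over 1.5 times. Without the replicate block that pairs input and m6A-IP, the counts were 1 for the ratio with RNAi at 5d and 0 with Abeta42. Depth limits upd3 and the Turandot genes in sorted cells, where most libraries held few or no counts.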
